A study of Homo sapiens with 2 samples.

Results

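Long non-coding RNAs transcribed from the strand opposite to another gene, or from its vicinity, carry the symbol of that gene with the ending -AS1, -AS2 or -AS3. Their response to silencing of GATA6 was examined in HT29, an established human colon adenocarcinoma line. Among 14812 gene symbols that could be named on the arrays, 473 had such an ending. They were chosen by the ending of the symbol, apart from CLDN10-AS1, which was left out with its difference known (9.27-fold higher). A gene with the symbol lacking the ending was named for 311 of them, which gave 311 antisense and sense pairs. Because 1 gene can have several antisense transcripts, these pairs contained 300 sense genes. The other 162 antisense genes had no named sense gene and were described alone.

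HT29 cells were transfected with an siRNA targeting GATA6 or with a control siRNA, and no other agent or allele was given for either group. GATA6 encodes a GATA family transcription factor expressed in intestinal epithelium, and the question was which transcripts differ when it is silenced. Each condition was represented by 1 Affymetrix array of total RNA. The methods name a pair of stealth siRNA duplexes against GATA6. The sources used here do not say which of them the array represents, how long after transfection RNA was taken, or what the word reanalyzed in the title of the control sample refers to.

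Antisense RNAs are known to act in several ways. Some are transcribed away from a promoter that they share with the sense gene, some overlap the sense transcript and can pair with it or compete with its transcription, and some act on distant genes. Many are kept at low levels and are degraded in the nucleus. In colon and other carcinomas, VPS9D1-AS1, AFAP1-AS1 and MNX1-AS1 have been studied as transcripts that favour growth.

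The deposited log2 values were centred on the median of both arrays, so the arrays hold the same number with opposite signs and no expression level is left. Every difference given is the log2 value in the GATA6 siRNA array less that in the control array. With 1 array in each group there is no replicate check and no p-value. The only measure of error was the disagreement between probe sets of 1 gene, with an SD of 0.19 over 470 genes with 2 probe sets. It compares probe sets within the same 2 arrays and does not measure variation between cultures or arrays. GATA6 itself stood at -0.58 in the GATA6 siRNA array and at 0.58 in the control array, a difference of -1.15, a 2.22-fold decrease. Without levels, the labelled cell line could not be checked against epithelial markers, and in total RNA of a culture, fewer cells of a kind and less RNA per cell cannot be told apart. Of the 13 epithelial markers listed, 10 were named and had differences from 0.02 for VIL1 to 2.16 for CEACAM5. Of the 11 markers of other cells, 5 were named and ranged from -0.41 for DES to 0.47 for LYZ.

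Differences of the antisense genes were small. Of the 473, 6 were lower and 2 were higher in the GATA6 siRNA array by over 1.4-fold, a log2 difference of 0.485. The methods of the study used this size for decreases. Together they made up 1.69% of the antisense genes, whereas 6.16% of 13756 named genes other than small RNAs passed that size. The lower ones were 1.27% of the antisense genes, compared with 2.61% of all genes, and the higher ones 0.423%, compared with 3.55%. The share was 1.63% among 923 other long non-coding RNA genes, and 6.77% among 11910 protein-coding genes. None of the 473 reached 2-fold. Of the 13756 named genes, 33 were lower and 50 higher by over 2-fold. Of the 923 other long non-coding RNA genes, 1 was lower and 1 higher. At such shares few or none of 473 would pass it. CLDN10-AS1, which had been left out, was 9.27-fold higher. No test compared these shares.

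The spread of the antisense genes was also described. Their interquartile range ran from -0.05 to 0.05, with a median of -0.0018, whereas that of all named genes ran from -0.08 to 0.09, with a median of 0. The SD was 0.14 for antisense genes, 0.15 for other long non-coding RNA genes and 0.26 for protein-coding genes. In 42 antisense genes (8.88%) the difference was larger than the SD between probe sets of 1 gene, compared with 27.3% of all named genes. In 13 of the 473 it was larger than 2 such SDs, compared with 1395 of the 13756 named genes. Below 0 lay 238 antisense genes (50.3%), above 0 lay 215 (45.5%), and 20 (4.23%) were listed at exactly 0 in both arrays. Of all named genes, 48.5% lay below 0, 48.3% above it and 3.22% at 0. This split depends on the scaling. Ribosomal protein genes as the zero point add 0.13 to every difference. With that zero point, 8.25% of the antisense genes and 18.5% of all named genes lay below 0. Past 1.4-fold, 3 antisense genes were then lower and 5 higher, beside 186 lower and 880 higher of all named genes.

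**Figure D1:**
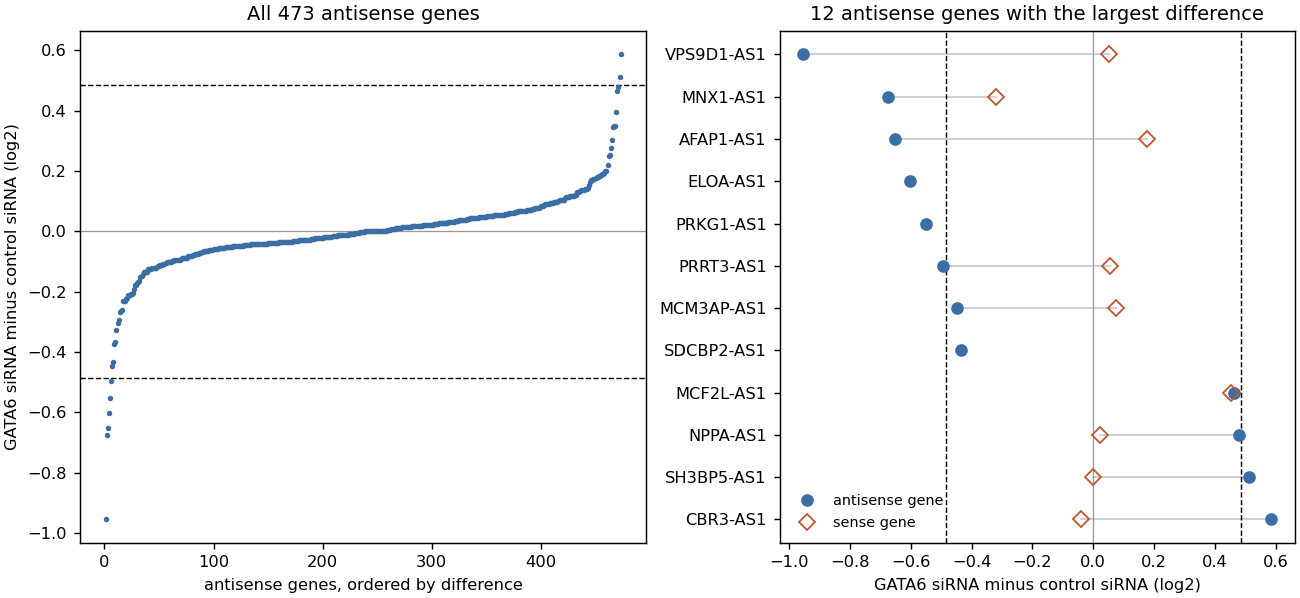
Left, the log2 difference (GATA6 siRNA minus control siRNA) of each of the 473 antisense genes in order of size, and right, the 12 with the largest absolute difference (filled circles) with their sense genes (open diamonds) where named. Dashed lines mark 1.4-fold. In 8 antisense genes the points lie beyond the lines, and none of the sense genes shown does.

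The largest decrease among the antisense genes was that of VPS9D1-AS1. Its RNA, also named MYU, has been described in colon cancer cells as a target of the transcription factor MYC. It stood at -0.48 in the GATA6 siRNA array and at 0.48 in the control array. The difference of -0.95 corresponds to a 1.94-fold decrease, to 51.6% of the control value. VPS9D1, which encodes a protein with a VPS9 domain and contains the antisense gene within its span, differed by 0.05. In the same arrays MYC was 2.67-fold lower (-1.42), and a relation between these 2 values was not tested.

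MNX1-AS1, which is transcribed away from the homeobox gene MNX1, stood at -0.34 in the GATA6 siRNA array and at 0.34 in the control array. It was 1.60-fold lower (-0.68). MNX1, a transcription factor of motor neurons and the pancreas, differed by -0.32 and did not pass 1.4-fold. This was the only one of the 6 pairs with an antisense gene past 1.4-fold in which both values were below 0.

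AFAP1-AS1, an RNA raised in many carcinomas, stood at -0.33 in the GATA6 siRNA array and at 0.33 in the control array, a 1.57-fold decrease (-0.65). AFAP1, an adaptor that links the kinase SRC to actin filaments, differed by 0.18 in the opposite direction. ELOA-AS1 was 1.52-fold lower (-0.60) and PRKG1-AS1 1.47-fold lower (-0.55). Their sense genes, which encode the elongation factor elongin A and a cGMP-dependent protein kinase, were not among the named genes. PRRT3-AS1 was 1.41-fold lower (-0.50) and its sense gene PRRT3, which encodes a proline-rich membrane protein, differed by 0.06. With ribosomal protein genes as the zero point, VPS9D1-AS1 (-0.82), MNX1-AS1 (-0.54) and AFAP1-AS1 (-0.52) still passed 1.4-fold, while ELOA-AS1 (-0.47), PRKG1-AS1 (-0.42) and PRRT3-AS1 (-0.36) did not.

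Increases were fewer. CBR3-AS1, studied in prostate cancer as PlncRNA-1, stood at 0.29 in the GATA6 siRNA array and at -0.29 in the control array, an increase of 0.59 to 150.1% of the control value. CBR3, a carbonyl reductase, differed by -0.04. SH3BP5-AS1 was 1.43-fold higher (0.51), while SH3BP5, which activates the recycling GTPase RAB11, was listed at exactly 0 in both arrays. With quantile normalization SH3BP5-AS1 had a difference of 0.48 and fell short of 1.4-fold. In the 6 pairs whose antisense gene passed 1.4-fold, the sense genes thus ranged from -0.32 to 0.18.

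Just inside 1.4-fold lay PRRT3-AS1 and SH3BP5-AS1, followed by PRKG1-AS1 and CBR3-AS1. Just outside were NPPA-AS1 (0.48), MCF2L-AS1 (0.46), MCM3AP-AS1 (-0.45) and SDCBP2-AS1 (-0.43). NPPA, the gene of atrial natriuretic peptide, differed by 0.02, and MCM3AP, which encodes an mRNA export factor, by 0.07. SDCBP2, a gene of the syntenin family, was not among the named genes. MCF2L contains MCF2L-AS1 within its span. Its difference of 0.45 nearly equalled that of the antisense gene, and this was the only pair in which both genes passed 1.4-fold when ribosomal protein genes served as the zero point.

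A further check within the arrays was possible for 20 antisense genes with more than 1 probe set. The SD between probe sets of 1 of these genes was 0.13, close to the SD of 0.14 over all antisense genes, and in 9 of the 20 the probe sets lay on both sides of 0. HLA-F-AS1, from the locus of a non-classical MHC class I gene, had 6 probe sets with differences of 0.11, 0.22, 0.50, 0.50, 0.52 and 0.53. All 6 lay above 0 and 4 of them passed 1.4-fold, although the mean of 0.39 did not. A pair of these probe sets had identical values, and whether they share probes was not examined. DHRS4-AS1 was the only antisense gene whose probe sets differed from each other by over 1.4-fold, with values of -0.60 and -0.05. PSMB8-AS1, beside a gene of the immunoproteasome, had 3 probe sets between -0.12 and -0.11. The other 453 antisense genes, all 8 past 1.4-fold among them, were measured by 1 probe set each.

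To see the start regions of these transcripts, the windows from 250 bases before to 50 bases after the start, as given by RefSeq (GRCh38.p14), were read. VPS9D1-AS1 and CBR3-AS1 are shown as the largest decrease and the largest increase (5′ to 3′, in lower case because neither window held the motif described next). The window of VPS9D1-AS1 lies at chr16:89711606-89711905 on the + strand and that of CBR3-AS1 at chr21:36156259-36156558 on the - strand.
VPS9D1-AS1: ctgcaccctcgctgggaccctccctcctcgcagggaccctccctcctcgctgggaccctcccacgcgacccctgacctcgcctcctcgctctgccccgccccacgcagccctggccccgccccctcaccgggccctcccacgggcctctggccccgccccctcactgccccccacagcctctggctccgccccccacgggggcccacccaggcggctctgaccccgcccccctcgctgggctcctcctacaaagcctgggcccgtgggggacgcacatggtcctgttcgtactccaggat
CBR3-AS1: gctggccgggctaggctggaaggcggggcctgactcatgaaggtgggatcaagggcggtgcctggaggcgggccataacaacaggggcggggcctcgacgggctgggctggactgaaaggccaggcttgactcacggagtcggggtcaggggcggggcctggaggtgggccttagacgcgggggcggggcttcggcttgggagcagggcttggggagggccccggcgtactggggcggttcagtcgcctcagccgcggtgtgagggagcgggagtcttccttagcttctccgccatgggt

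Each window was searched on both strands for the GATA motif, spelled AGATAA or, as further spellings, AGATAG, the variant TGATAA or the variant TGATAG. Windows were given for 363 of the 473 antisense genes, and 22.5% of their 414 windows held a match, compared with 24.97% of the 35116 windows in the table and 20.6% of the 466 windows of the sense genes. Counted by gene, a match was held by 24.5% of the antisense genes with a window, 29.8% of such sense genes and 29.1% of all genes. Of the 8 antisense genes past 1.4-fold, 6 had a window and 0 of these held a match. Of the 12 antisense genes with the largest difference, 9 had a window and 1 held a match. That gene was SDCBP2-AS1 (-0.43), whose match, read on the opposite strand, began 151 bases before the start. It is shown in capitals within 30 bases of chromosome 20 because it was the only match in this group.
SDCBP2-AS1: agcctcagtttcCTATCTgtcacatcgttc

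A match is a description of the letters, and GATA6 binding was not measured here.

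The sense genes differed more than their antisense partners. Of 300 sense genes 7 were lower and 12 higher by over 1.4-fold, together 6.33%, which is near the 6.16% of all named genes, and the SD of their differences was 0.25. With ribosomal protein genes as the zero point, 7 were lower and 24 higher. Of all named genes, 186 were then lower and 880 higher, together 7.75%. The sense gene had the larger absolute difference in 192 pairs and the antisense gene in 119. In none of the 311 pairs did both genes pass 1.4-fold. The antisense gene passed it in 6 pairs and the sense gene in 19, and at such shares few or no pairs would have both past it. Across the 19 pairs with a sense gene past 1.4-fold, the antisense gene had a median absolute difference of 0.08, it lay within 0.2 of 0 in 16, and its sign was that of the sense gene in 8. Over all 473 antisense genes the median absolute difference was 0.05, and 8.88% differed by more than 0.19. Small values were thus not particular to these 19.

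**Figure D2:**
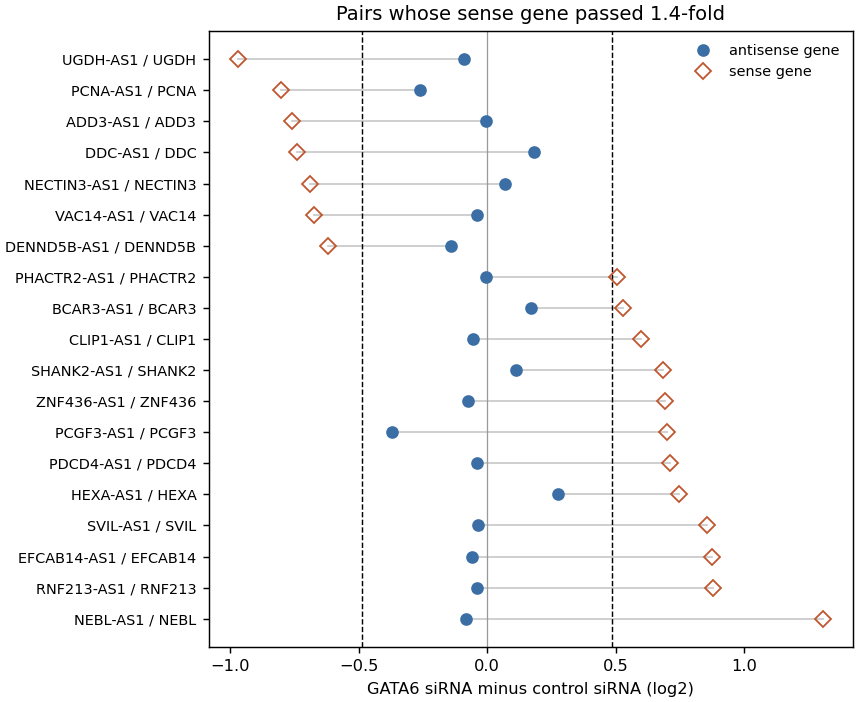
Log2 difference (GATA6 siRNA minus control siRNA) of the antisense gene (filled circles) and the sense gene (open diamonds) in the 19 pairs whose sense gene passed 1.4-fold, with dashed lines at 1.4-fold. The sense genes run from -0.97 for UGDH to 1.31 for NEBL, while all 19 antisense genes stay inside the lines. Of all antisense genes, 1.69% lie beyond them.

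Among the pairs with a lower sense gene, UGDH-AS1 stood at -0.04 in the GATA6 siRNA array and at 0.04 in the control array, a difference of -0.09. UGDH, which makes UDP-glucuronate for glycosaminoglycans and for conjugation, was 1.96-fold lower (-0.97), at -0.48 in the GATA6 siRNA array and at 0.48 in the control array. PCNA-AS1 differed by -0.26, and PCNA, the sliding clamp of DNA replication, was 1.74-fold lower (-0.80). ADD3-AS1 differed by -0.0061 and ADD3, a membrane skeleton protein of the adducin family, by -0.76. DDC-AS1 and NECTIN3-AS1 had values above 0 (0.18 and 0.07), whereas DDC, the aromatic amino acid decarboxylase, was 1.67-fold lower and NECTIN3, a cell adhesion molecule, 1.61-fold lower. VAC14-AS1 (-0.04) and DENND5B-AS1 (-0.14) differed little, while VAC14, a scaffold of phosphoinositide synthesis, differed by -0.67 and DENND5B, an exchange factor for Rab GTPases, by -0.62. Of the 7 antisense genes in this group PCNA-AS1 lay farthest below 0.

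Among the pairs with a higher sense gene, NEBL-AS1 stood at -0.04 in the GATA6 siRNA array and at 0.04 in the control array. NEBL, which encodes an actin-binding protein of the nebulin family, stood at 0.65 in the GATA6 siRNA array and at -0.65 in the control array and was 2.48-fold higher (1.31), the only sense gene past 2-fold. RNF213-AS1 (-0.04), EFCAB14-AS1 (-0.06) and SVIL-AS1 (-0.04) lay near 0. Their sense genes RNF213, a large ubiquitin ligase (1.84-fold), EFCAB14, which encodes a protein with EF-hands (1.83-fold), and SVIL, an actin-binding protein (1.81-fold), were higher.

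The antisense gene of this group farthest in the other direction was PCGF3-AS1, with -0.37. PCGF3, a component of a non-canonical Polycomb complex, was 1.63-fold higher (0.70), which made the difference within the pair -1.07. HEXA-AS1 had the largest value in the direction of its sense gene (0.28), and HEXA, a subunit of lysosomal hexosaminidase, was 1.68-fold higher (0.75). PDCD4-AS1 had a difference of -0.04, with PDCD4, an inhibitor of translation initiation, at 0.71. ZNF436-AS1 was at -0.08, with the zinc finger gene ZNF436 at 0.69. SHANK2-AS1 (0.11), BCAR3-AS1 (0.17), CLIP1-AS1 (-0.05) and PHACTR2-AS1 (-0.0029) completed the group, and their sense genes, which encode scaffold, adaptor, microtubule and phosphatase-binding proteins, were 1.42-fold to 1.61-fold higher. The 3 members in which the antisense gene followed the sense gene upward were HEXA-AS1, BCAR3-AS1 and SHANK2-AS1, none of them past 1.4-fold.

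Over all 311 pairs, 149 had differences of the same sign and 141 of opposite sign, and in 21 at least 1 gene was listed at exactly 0. Both genes were below 0 in 70 pairs and above 0 in 79, while 83 had a lower antisense and a higher sense value and 58 the reverse. Pearson's r across the pairs was 0.0061 and Spearman's coefficient -0.03. The pairs share the same 2 arrays and are not replicates, so these values are descriptions. The sign is also set by the scaling: 253 pairs had the same sign with ribosomal protein genes as the zero point, which moves most values above 0.

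**Figure D3:**
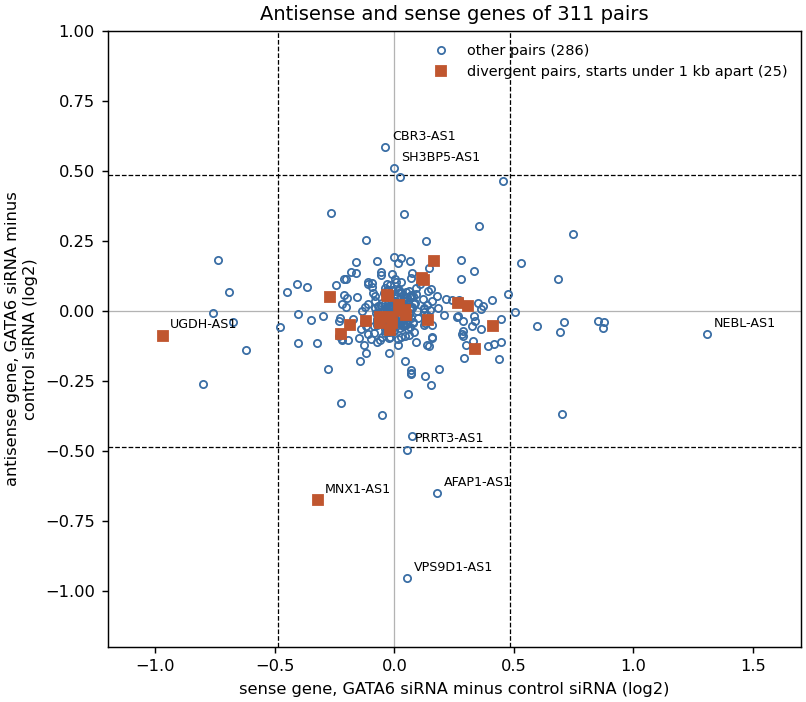
Log2 difference of the antisense gene (vertical axis) against that of its sense gene (horizontal axis) for 311 pairs, with 25 divergent pairs as filled squares, other pairs as open circles and dashed lines at 1.4-fold. Antisense genes past the lines have sense genes from -0.32 to 0.18. The corners hold no pair, and with 6 antisense and 19 sense genes past the lines, few or none would lie there by these shares.

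In 6 pairs both genes passed 1.2-fold (0.26 on the log2 scale), and these pairs are few enough to name. In 4 of them the signs were equal. MNX1-AS1 (-0.68) and MNX1 (-0.32) were both below 0, whereas MCF2L-AS1 (0.46) with MCF2L (0.45), SAMD12-AS1 (0.30) with SAMD12 (0.35) and HEXA-AS1 (0.28) with HEXA (0.75) were above 0. In the other 2, PCGF3-AS1 (-0.37) opposed PCGF3 (0.70), and ARHGEF26-AS1 (0.35) opposed ARHGEF26 (-0.27). The 1.2-fold size was chosen after the values had been seen. The shares of antisense, sense and all named genes past 1.2-fold were not counted, so 6 cannot be read as many or few.

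Pairs were then placed by their arrangement in RefSeq (GRCh38.p14), which could be done for 214 of the 311. In 25 divergent pairs, transcribed away from each other with starts less than 1 kb apart, 17 had the same sign, 7 the opposite sign and 1 a gene at 0. In 64 pairs that overlapped at their starts, 29 had the same and 31 the opposite sign. With the antisense gene inside the sense gene there were 75 pairs, 38 of the same and 30 of opposite sign. The 35 pairs that overlapped at their ends had 13 of the same and 22 of opposite sign. Of 7 other pairs that did not overlap, at any distance, 1 had the same and 5 the opposite sign. Of 8 pairs with the sense gene inside the antisense gene, 4 had the same and 3 the opposite sign. Other limits than 1 kb were not tried. The arrangement was examined with the values known, the groups were not compared by a test, and most of their values were smaller than the SD of probe sets within a gene.

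**Figure D4:**
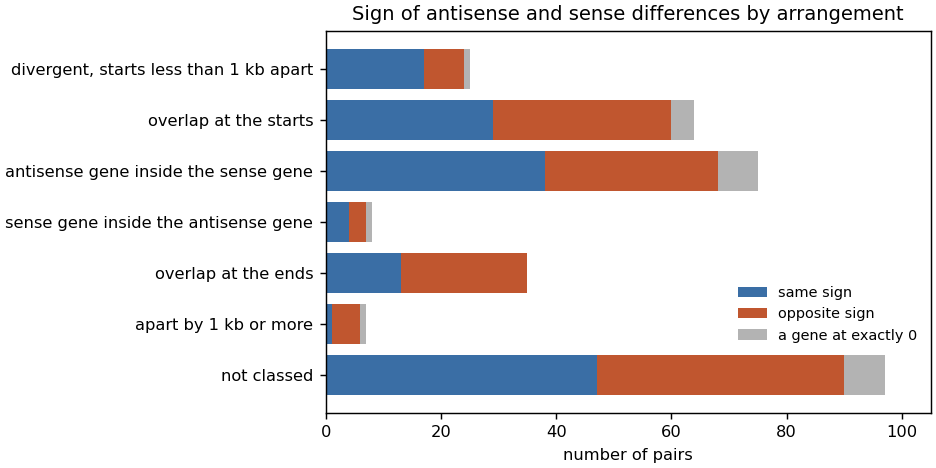
Number of antisense and sense pairs whose differences had the same sign, opposite signs or a gene at exactly 0, by arrangement of the 2 genes in RefSeq, with 97 pairs not classed. The group labelled apart by 1 kb or more holds all pairs that neither overlapped nor were divergent, whatever their distance. Of 25 divergent pairs 17 had the same sign, and of 35 pairs overlapping at their ends 13 did. Of 64 overlapping at their starts 29 did, and of 75 with the antisense gene inside the sense gene 38. Over all 311 pairs 149 did, and no test compared the groups.

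Divergent pairs had small values, with the exception of a few. Besides MNX1-AS1, the antisense genes lay between -0.14 for UBAC2-AS1 and 0.18 for WAC-AS1. WAC-AS1 and WAC, a regulator of histone ubiquitination, differed by 0.18 and 0.17. ZNF674-AS1 and ZNF674 both had 0.12, and ZNF143-AS1 and the transcription factor gene ZNF143 had 0.11 and 0.13. Both genes were below 0 in the pair of URB1-AS1 (-0.08) with URB1 (-0.22), a ribosome assembly gene. In contrast, UBAC2-AS1 (-0.14) opposed UBAC2 (0.34) and ARHGAP5-AS1 (-0.05) opposed ARHGAP5 (0.41). Pearson's r over the 25 pairs was 0.32, and MNX1-AS1 and UGDH lay far from the other points.

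The start windows of the 2 divergent pairs with the largest values are shown because these pairs differ in which of the 2 genes had the larger difference. The window of MNX1-AS1 (chr7:157010607-157010906, + strand, GRCh38.p14) shared 293 bases with a start window of MNX1 on the other strand. That of UGDH-AS1 (chr4:39527589-39527888, + strand, GRCh38.p14) shared 101 bases with the start window of UGDH. Capitals mark the shared bases, and neither window held the GATA motif.
MNX1-AS1: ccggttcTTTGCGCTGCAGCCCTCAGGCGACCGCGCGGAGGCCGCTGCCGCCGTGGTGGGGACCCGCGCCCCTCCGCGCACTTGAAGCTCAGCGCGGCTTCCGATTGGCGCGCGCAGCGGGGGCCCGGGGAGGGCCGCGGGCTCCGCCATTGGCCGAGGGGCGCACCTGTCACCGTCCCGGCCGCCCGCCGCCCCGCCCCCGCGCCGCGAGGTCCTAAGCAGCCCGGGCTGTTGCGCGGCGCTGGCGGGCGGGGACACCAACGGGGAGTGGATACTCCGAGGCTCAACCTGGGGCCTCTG
UGDH-AS1: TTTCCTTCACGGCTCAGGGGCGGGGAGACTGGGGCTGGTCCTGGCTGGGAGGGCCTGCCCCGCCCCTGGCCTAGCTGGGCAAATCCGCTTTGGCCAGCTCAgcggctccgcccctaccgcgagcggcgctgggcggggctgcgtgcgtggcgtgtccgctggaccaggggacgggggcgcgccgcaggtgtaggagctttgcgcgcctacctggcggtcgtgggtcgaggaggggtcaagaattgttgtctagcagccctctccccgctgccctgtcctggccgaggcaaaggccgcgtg

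The sequences are rich in G and C, with 77.7% in the MNX1-AS1 window and 71.7% in the UGDH-AS1 window. The median was 58.7% over all windows in the table, 60% over antisense windows and 63.2% over sense windows. The windows of VPS9D1-AS1 and MCM3AP-AS1 held 75.7% and 77.3%, so such values were not particular to divergent pairs. That of SDCBP2-AS1 held 58.3%. Both genes were below 0 in the MNX1-AS1 pair and in the UGDH-AS1 pair. The antisense and sense genes differed by -0.68 and -0.32 in the pair sharing 293 bases, and by -0.09 and -0.97 in the pair sharing 101 bases. A relation between shared bases and these values was not tested.

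Antisense genes of transcription factors were described apart, since many lie beside genes that specify tissues. The 49 members, grouped by symbol after the values had been seen, included antisense genes of homeobox, forkhead, GATA, T-box and zinc finger genes. Of these 1 was lower and 0 higher by over 1.4-fold (2.04%, near the 1.69% of all antisense genes and beside 6.16% of all named genes), and the median was 0.02. MNX1-AS1 was the 1 past that size. LHX4-AS1 (0.35), NR2F1-AS1 (0.20) and LBX1-AS1 (0.18) were the highest, and MEIS1-AS3 (-0.23) and FOXD2-AS1 (-0.18) the lowest after MNX1-AS1. GATA3-AS1, beside the GATA factor of T cells and luminal breast epithelium, had 0 and 0.02 in its 2 probe sets, and GATA3 differed by 0.18. ZEB1-AS1 (0.07) and ZEB2-AS1 (-0.06), next to repressors of the epithelial programme, lay near 0, as did ZEB1 (-0.0081) and ZEB2 (0.06). LEF1-AS1 (0.03), beside a nuclear effector of Wnt signaling, and LEF1 (0.04) were also near 0. FEZF1-AS1, studied in colon cancer, had a difference of 0.01.

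Several antisense genes of 1 sense gene offered a comparison among neighbours. For 15 sense symbols 2 or 3 antisense genes were present, 31 in all, and the range within a symbol was 0.0027 to 0.14, with a median of 0.05. BABAM2-AS1 (-0.12) and BABAM2-AS2 (0.02) lay farthest apart. ZNF32 was the only symbol with 3, at -0.04, 0.02 and -0.05. DIAPH3-AS1 (-0.11) and DIAPH3-AS2 (-0.01) accompanied DIAPH3, a formin, at -0.40. None of the 31 passed 1.4-fold, and at the 1.69% of all antisense genes few or none of 31 would.

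By ending, 429 genes carried -AS1, 32 carried -AS2 and 12 carried -AS3. All 8 genes past 1.4-fold were of the -AS1 kind, to which most of the 473 belong. They were 1.86% of the -AS1 genes, near the 1.69% of all antisense genes. The SDs of the differences were 0.14 for -AS1, 0.07 for -AS2 and 0.07 for -AS3. Among other classes of long non-coding RNA, 4 of 458 LINC genes (0.873%) and 3 of 99 genes ending in -DT (divergent transcripts, 3.03%) passed that size, compared with 1.69% of the antisense genes. None of 23 ending in -IT1 (intronic transcripts) or of 5 ending in -OT1 (overlapping transcripts) did, and no test compared these shares. The 14 antisense genes with other endings ranged from -0.47 to 0.05, and 0 passed 1.4-fold. The difference of CLDN10-AS1 was 3.21, with CLDN10 at 0.34.

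Genes that process, degrade or work with antisense RNA were listed separately, and 29 of 46 symbols were named. Of these 0 were lower and 2 higher by over 1.4-fold (6.90%), near the 6.16% of all named genes, with a median of 0.04 beside 0 over all genes. The 2 were DCP2, the decapping enzyme (0.97), and DNMT3A, a DNA methyltransferase (0.66). The next were XRN2, a nuclear exonuclease (0.46), and EZH1, a Polycomb methyltransferase (0.46), whereas its paralog EZH2 was at -0.35. The nuclear exosome catalytic subunit EXOSC10 (0.03) and the helicase MTREX (0.04) that feeds it lay near 0 with the deposited scaling. On the same list RBM7 (0.29), DIS3 (0.20), DIS3L (0.18) and EXOSC3 (-0.19) lay farther from 0. Among 25 named long non-coding RNAs with names of their own, SNHG16 (-1.41) was lower, and UCA1 (0.82) and KCNQ1OT1 (0.76), itself an antisense transcript of KCNQ1, were higher by over 1.4-fold. These 3 made up 12% of the list, beside 6.16% of all named genes and 1.63% of other long non-coding RNA genes, and the list was chosen with earlier results of these data known. MIR31HG (-0.48) did not pass that size.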

How the data were processed

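Total RNA of HT29 cells transfected with GATA6 siRNA or control siRNA was hybridized to Affymetrix Human Gene 2.0 ST arrays, 1 per condition, and evaluated by the authors in GeneSpring 12.6.1. The authors deposited log2 values of 44629 probe sets relative to the median of the 2 arrays. The log base is not stated and was taken as 2, the base GeneSpring uses. The sources used here do not state the normalization or any filter.

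A table of the platform named 15835 probe sets with 1 symbol, 0 with several, and 28794 stayed unnamed here. Probe sets of the same symbol were averaged, and 1056 small RNA genes were left out of the background. Sense genes were matched by symbol, and arrangements and start windows came from RefSeq (GRCh38.p14). The probe sequences and the build used for the array were not examined. Arrays numbered 1 per group, so no test was made and the number of arrays limits the precision. Calculations used Python 3.11.15 and pandas 2.3.3.

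The members and gene lists were chosen with earlier results of these data known. Genes were named by size: the 12 antisense genes with the largest difference, all antisense and paired sense genes past 1.4-fold, the largest within-pair differences, the neighbours of the threshold and the probe sets in disagreement. MYC, HLA-F-AS1, PSMB8-AS1 and the genes named by arrangement, by family and by ending were chosen after their values were seen. Alternatives were ribosomal protein centring on 43 genes, quantile normalization, other choices of probe sets and pairs, and a 2-fold size.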

Additional observations from a re-analysis of the deposited data

How the results depend on the processing

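No paired analysis was possible because the design has 1 array of each kind, so no replicate could be left out. Background correction and a filter on dim probe sets were not run, since the values hold no levels, and how far signals stood above background is unknown. With a 2-fold size 0 antisense and 1 sense gene remained past the size, beside 33 lower and 50 higher of all named genes. A larger size lowers such counts by construction. Restricting the genes to pairs on opposite strands that overlap or adjoin left 3 antisense genes past 1.4-fold among 207, because fewer genes were counted. With ribosomal protein genes as the zero point, the median of all genes moved to 0.13 and 7.75% of them passed 1.4-fold. Sense genes past it numbered 31 of 300, pairs with both genes past it 1 and pairs of the same sign 253 of 311. The added constant accounts for these. With that scaling the lower share of the calls was 37.5% for antisense genes, 22.6% for sense genes and 17.4% for all genes, while with quantile normalization it was 85.7%, 42.1% and 50.8%. As deposited, 6 of 8 antisense calls, 7 of 19 sense calls and 42.3% of all calls were lower. Among the 12 largest antisense differences, 54 values under other settings kept their side of 1.4-fold, 4 fell short of it and 2 came to pass it, and none changed sign. Each of these 12 genes had 1 probe set, so the settings that choose or leave out probe sets could not move its value. Most of the 54 were therefore fixed in advance. All values that crossed 1.4-fold did so with ribosomal protein centring or quantile normalization, the only settings here that could move them.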
